A study of Mus musculus with 25 samples.

Results

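Hyaluronan is a long sugar polymer of the extracellular matrix, and in the forming palate it is a major component of the matrix of the shelves. The 7 genes described here cover its production, breakdown and binding, and were found by gene symbol as 7 of the 37406 rows of an RNA-seq table of the mouse palate at E14.5. They are the hyaluronan synthases Has1, Has2 and Has3, the hyaluronidases Hyal1 and Hyal2, the receptor Cd44 and the proteoglycan Vcan. The 25 libraries came from wild type CD1 embryos by laser capture microdissection (LCM), in which small regions are cut from tissue sections with a laser. There were 8 compartments, the medial, lateral, oral and nasal palate at anterior and at posterior levels, with 3 libraries each and 4 for anterior nasal. Medial and lateral, and oral and nasal, are 2 ways of dividing the same shelves, so the 4 compartments of a level cover overlapping tissue. The study calls the replicates biological, but the labels do not tie libraries to embryos. P-values therefore measure only the spread between these libraries. They are too small where libraries of 1 group share an embryo, and the effect of embryos shared across groups was not tested. No library received a treatment, so all comparisons are between positions in the normal palate.

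Synthases sit in the plasma membrane and extrude hyaluronan as they build it from UDP-glucuronic acid and UDP-N-acetylglucosamine. Hyaluronidases cut the chains, HYAL2 at the cell surface and HYAL1 in the lysosome. CD44 binds hyaluronan at the cell surface, and versican, the product of Vcan, binds it in the matrix and is held there by link proteins. Hyaluronan takes up water, and this swelling has long been discussed as a force in shelf elevation.

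Values are RPKM, reads per kilobase of gene model and per M reads, so levels can be compared between genes. All 7 genes were above 0 in all 25 libraries, but at very different levels. Vcan had a mean of 150.8 RPKM, above the means of 98.7% of the 11913 genes that reached 5 RPKM in 3 or more libraries. Has2 followed with 45.6 RPKM, above 89.3% of those genes. Hyal2 averaged 21.8, Cd44 18.6, Has1 14.8, Hyal1 8.42 and Has3 5.02 RPKM. The study removed duplicate and multiply aligned reads, and its stated average of reads per sample is far above the depth found here. Depth behind the values, worked out from their smallest steps, lay between 1.64 and 6.56 M reads a library (median 3.27 M). At this depth Cd44 rested on 33.0 to 1240 reads per library, Has3 on 22.0 to 367 and Hyal2 on 14 to 465, which gives a counting error of up to 17.4%, 21.3% and 26.7%, respectively. For the other 4 genes the length used in the table could not be read from the values. With the longest coding transcript in GENCODE M21, Has2 rested on about 164 to 1880 reads and Vcan on about 3360 to 15500.

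Some properties of the libraries bear on what follows. Marker genes of palatal mesenchyme were present in every library, with a summed level of 633 to 1351 RPKM for 7 of 7 markers. Epithelial markers, 8 of 8 in the table, summed to 20.2 to 139.5 RPKM. Posterior medial replicate 2 stood apart, being outside the range of the other 24 libraries for 52.4% of 11913 genes, and anterior oral replicate 1 was outside it for 26.6%. Posterior medial replicate 2 was outside that range for 4 of the 7 members, Has1, Has3, Hyal1 and Cd44, and anterior oral replicate 1 for Hyal2. The column headers name 8 sequencing runs. No run held both lateral and medial libraries of the same level, so no within-run value exists for those comparisons. The alignment names of 6 libraries carry the name of a mouse line together with WT, Tgfbr2 in 4 and ERK2 in 2, while the labels give wild type CD1 for all.

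**Figure D1:**
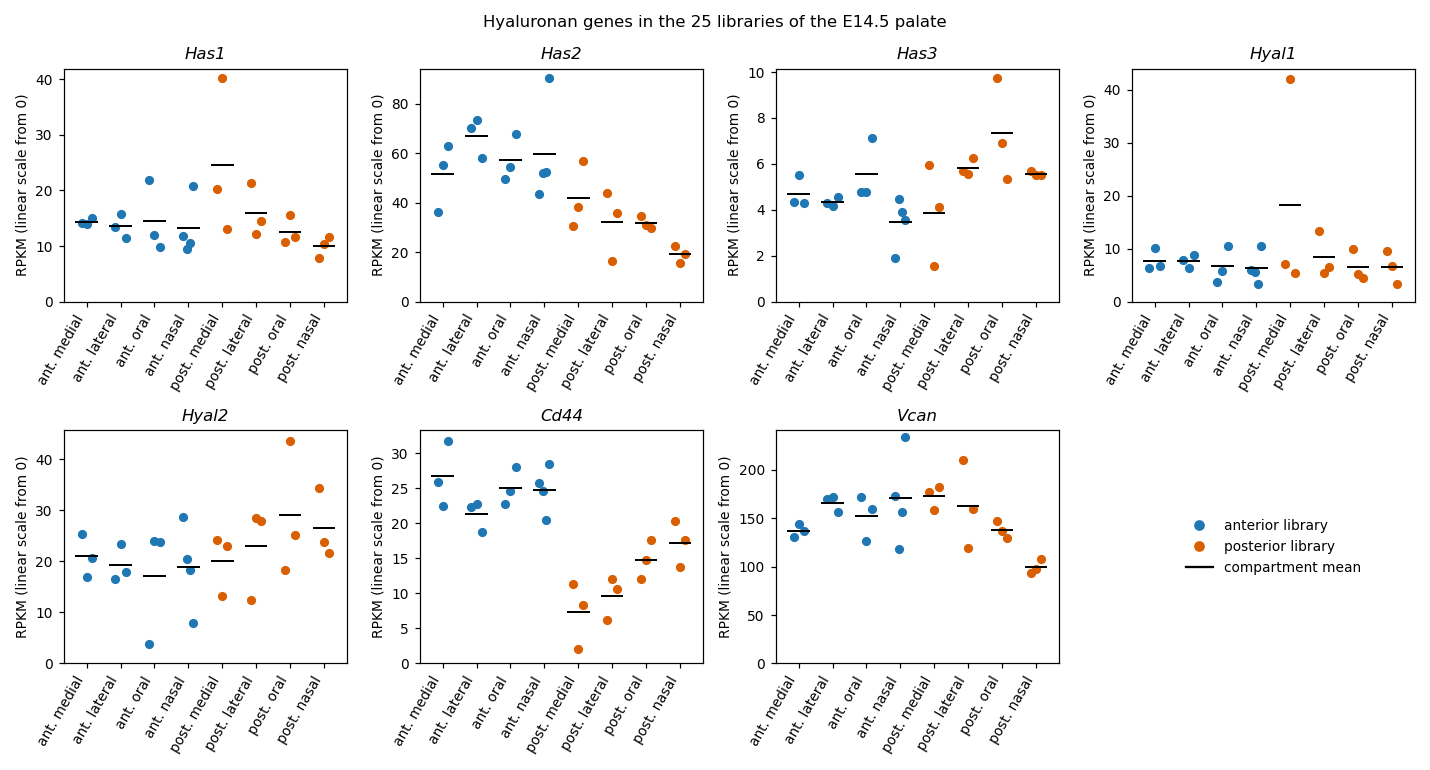
RPKM of the 7 hyaluronan genes (vertical axes, linear from 0) in each library of the 8 compartments (horizontal axes); points are libraries, blue anterior and orange posterior, and black lines are compartment means. Has2 and Cd44 were lower in most posterior compartments, Vcan was lowest in posterior nasal, and single libraries gave the highest Has1 and Hyal1 values.

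The comparison of the 12 posterior with the 13 anterior libraries asked which of these genes follow the anterior-posterior axis. Has2 and Cd44 were both lower in the posterior palate, each by close to a factor of 2. Hyal2, Has1 and Vcan did not pass the test. By limma on log2(RPKM + 0.1) with Benjamini-Hochberg adjustment over 8608 genes, 3.32% were called at an adjusted p under 0.05, and 1.66% were called lower in the posterior palate. Of the 7 members, 5 reached the minimum of 10 RPKM in 6 libraries, and 2 of these were called, both lower. Has3 and Hyal1 did not reach it and were not tested. The median log2 difference, posterior minus anterior, was -0.16 over the 5 members and 0.03 over all genes tested.

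Has2, the main synthase of embryonic mesenchyme, averaged 58.9 ± 14.1 RPKM over the 13 anterior libraries (SD) and 31.1 ± 11.99 RPKM over the 12 posterior ones (SD). The log2 difference was -0.98 (SE 0.18, adjusted p = 0.001388 by limma). Has2 lies at chr15:56497182-56526101 on mm9, gene ID 15117. Anterior lateral gave the highest compartment mean, with 70.0, 73.3 and 57.9 RPKM in its 3 libraries, against 43.9, 16.3 and 35.9 RPKM in posterior lateral. Anterior oral libraries had 49.7, 54.5 and 67.7 RPKM and posterior oral libraries 34.6, 30.9 and 29.9 RPKM. Anterior nasal libraries had 43.4, 52.1, 52.3 and 90.4 RPKM, and posterior nasal libraries 22.5, 15.4 and 19.2 RPKM. In these 3 compartments the anterior and posterior values did not overlap, as for 9.79% of genes in lateral, 2.44% in oral and 5.87% in nasal in this direction. The ratio of the means, anterior over posterior, was 2.09 in lateral, 1.80 in oral and 3.13 in nasal. The medial compartment was different, since anterior medial, with 36.2, 55.3 and 63.0 RPKM, overlapped posterior medial, with 30.6, 38.1 and 56.6 RPKM. Posterior lower with no overlap in at least 3 of the 4 compartments was found for 1.43% of the 8608 genes.

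Some anterior and posterior libraries shared a run. In lateral, oral and nasal, where no values overlapped, the lower posterior Has2 level within a run follows from that and is no separate check. In the shared run for lateral, the anterior value was 57.9 RPKM and the posterior values were 16.3 and 35.9 RPKM. In the shared run for oral and nasal, anterior oral stood at 67.7 against 34.6 RPKM and anterior nasal at 90.4 against 22.5 RPKM. These were single libraries, the 4 with Tgfbr2 in the alignment name. Without them, no run held anterior and posterior libraries of oral or of nasal. In the shared run for medial, the anterior range of 36.2 to 63.0 RPKM overlapped the posterior range of 38.1 to 56.6 RPKM. With sequencing run as a covariate in the fit of all 25 libraries, the adjusted p of the anterior-posterior difference was 0.02654. Without the 6 libraries whose alignments carry a line name it was 0.01431, with a log2 difference of -0.97. An antisense gene, Has2as, named here because it overlaps Has2, averaged 7.84 ± 4.19 RPKM in anterior (SD, n = 13) and 3.88 ± 2.14 RPKM in posterior libraries (SD, n = 12). Strand use in counting is not given in the sources used here, so reads of the 2 genes cannot be told apart in the overlap.

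Cd44 encodes the main cell surface receptor for hyaluronan. It averaged 24.5 ± 3.52 RPKM in anterior (SD, n = 13) and 12.2 ± 5.14 RPKM in posterior libraries (SD, n = 12), a log2 difference of -1.16 (SE 0.24, adjusted p = 0.003669 by limma), or 2.24-fold. By the same limma test it also passed the cut-offs of the study (unadjusted P under 0.05, more than 2-fold), which the study applied along this axis to a pooled read test and not to limma, as did 1.75% of genes tested, while the Has2 change of 1.97-fold did not. The gene, ID 12505, lies at chr2:102651300-102741822 on mm9. Its promoter is shown because Cd44 is 1 of the 2 members that differed along this axis and the other, Has2, has no entry in the RefSeq promoter table used here, nor has Has3. The window runs from 250 bases before to 50 bases after the start, chr2:102901616-102901915 on GRCm38.p6, minus strand, written 5′ to 3′, with the motif GGGCGG of the GC box in capitals.
Cd44: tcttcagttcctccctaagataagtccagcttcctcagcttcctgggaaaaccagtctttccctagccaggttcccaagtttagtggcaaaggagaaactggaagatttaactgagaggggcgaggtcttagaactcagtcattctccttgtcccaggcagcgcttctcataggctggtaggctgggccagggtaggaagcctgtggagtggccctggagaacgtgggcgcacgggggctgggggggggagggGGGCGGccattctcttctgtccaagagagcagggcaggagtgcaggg
The window held 1 GC box (GGGCGG on either strand), which 35.7% of the 32851 promoters of 300 bases in the table also held. It had no TATAAA, found in 13.6%, and no CCAAT, found in 37.4%, both also searched on either strand. Of the 5 members with an entry, Cd44, Hyal1, Hyal2 and Vcan held a GC box, and Has1, Hyal1 and Vcan held a CCAAT.

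The posterior level of Cd44 was lower in every compartment, with no overlap. Anterior medial libraries had 26.0, 22.5 and 31.8 RPKM and posterior medial ones 11.4, 2.07 and 8.42 RPKM. Anterior lateral libraries had 22.3, 22.8 and 18.8 RPKM and posterior lateral ones 6.21, 12.1 and 10.6 RPKM. The gap was widest in medial, where the anterior mean was 3.67 times the posterior mean, and 2.21 times in lateral. Anterior oral libraries had 22.8, 24.6 and 28.0 RPKM, and posterior oral ones 12.1, 14.8 and 17.6 RPKM. Anterior nasal libraries had 25.7, 24.6, 20.5 and 28.4 RPKM, against 20.4, 13.8 and 17.6 RPKM in posterior nasal. The ratio of means was 1.70 in oral and 1.44 in nasal, and of all genes tested 6.58% were lower in this way in medial. In oral the ranges were clearly apart, and in nasal the ranges nearly met, the highest posterior value being 20.4 and the lowest anterior value 20.5 RPKM. Lower posterior values with no overlap in all 4 compartments were found for 0.372% of the 8608 genes.

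Within the posterior palate the Cd44 mean was 7.28 RPKM in medial, 9.63 in lateral, 14.8 in oral and 17.3 in nasal, and neighbours in this order overlapped. The lowest value, 2.07 RPKM, was that of posterior medial replicate 2. Without this library the posterior against anterior log2 difference was -0.95 and the adjusted p 0.0001155. Within the runs that held both levels, the anterior libraries were above the posterior ones in each of the 4 compartments. This follows from the lack of overlap and is no separate check. In oral, for example, the values were 28.0 against 12.1 RPKM, both from libraries with Tgfbr2 in the alignment name. With sequencing run as a covariate the log2 difference was -1.26 but the adjusted p was 0.05136, so the call was lost. Without the 6 libraries with a line name it was -1.17 with an adjusted p of 0.03088.

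Summed marker levels overlapped between the anterior and posterior libraries, but single markers differed. Of the mesenchymal markers, Prrx1 was lower in the posterior palate (log2 difference -0.69, SE 0.18, adjusted p = 0.02358 by limma) and the collagen gene Col1a1 was higher (0.46, SE 0.12, adjusted p = 0.03187). Of the 4 cartilage markers only Col2a1 was tested, and it was higher (1.199 on the log2 scale, SE 0.25, adjusted p = 0.003736). No other marker tested along this axis was called, but of the 8 epithelial markers only 3 were tested. Among those not tested, Krt8 averaged 8.80 RPKM in anterior and 1.58 RPKM in posterior libraries. Epcam had 8.19 and 3.97 RPKM, Krt18 7.775 and 3.99, Trp63 2.32 and 1.25, and Cdh1 2.70 and 2.66 RPKM. Mesenchymal markers, 7 of 7, summed to 751.8 to 1071 RPKM in anterior and 633 to 1351 RPKM in posterior libraries. Summed levels of 8 of 8 epithelial markers were 39.4 to 139.5 RPKM in anterior (median 69.4) and 20.2 to 123.3 RPKM in posterior libraries (median 39.8). Those of 9 of 9 macrophage markers were 60.7 to 217 (median 116.3) and 81.1 to 257 RPKM (median 143.8). Endothelial markers, 7 of 7, summed to 76.0 to 210.2 RPKM in anterior and 59.7 to 198 RPKM in posterior libraries. Cartilage markers, 4 of 4, reached higher sums at the posterior level, with 9.56 to 38.3 RPKM in anterior and 22.0 to 88.3 RPKM in posterior libraries, and red cell markers, 5 of 5, had 170.7 to 479.9 and 270.3 to 714.7 RPKM. None of these markers was at 0 in all libraries of either level. Their part in the Has2 and Cd44 differences was not tested. In bulk samples of this kind, fewer cells of a type and less RNA per cell cannot be told apart.

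**Figure D2:**
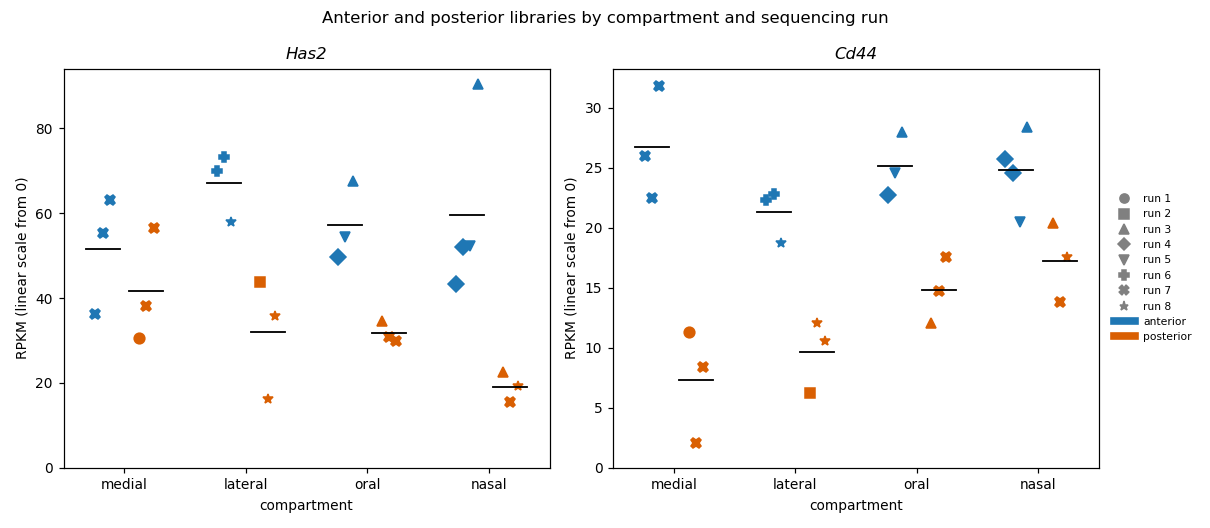
RPKM of Has2 (left) and Cd44 (right) on linear axes from 0, by compartment; each symbol is a library, blue anterior and orange posterior, its shape marks the sequencing run, and black lines are means. Cd44 was lower in every posterior compartment with no overlap, and Has2 in lateral, oral and nasal but not in medial.

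The other synthases did not follow Has2. Has1, on mm9 at chr17:17980290-17992152 with gene ID 15116, averaged 13.9 ± 3.85 RPKM in anterior (SD, n = 13) and 15.8 ± 8.67 RPKM in posterior libraries (SD, n = 12), a log2 difference of 0.09 (SE 0.20, adjusted p = 0.8804 by limma). Anterior medial libraries had 14.1, 13.96 and 15.02 RPKM, anterior lateral ones 13.5, 15.8 and 11.4, anterior oral ones 21.9, 11.99 and 9.89, and anterior nasal ones 11.8, 9.46, 10.6 and 20.9 RPKM. Posterior medial libraries had 20.2, 40.3 and 13 RPKM, posterior lateral ones 21.3, 12.2 and 14.51, posterior oral ones 10.7, 15.6 and 11.5, and posterior nasal ones 7.88, 10.4 and 11.6 RPKM. The value of 40.3 was in posterior medial replicate 2, and the next highest of all was 21.9 RPKM in anterior oral replicate 1, the other library that stood apart.

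Has3, at chr8:109394142-109406802 on mm9 with gene ID 15118, was the lowest of the 7 genes. Anterior medial libraries had 4.32, 5.50 and 4.28 RPKM, anterior lateral ones 4.28, 4.15 and 4.54, anterior oral ones 4.76, 4.78 and 7.14, and anterior nasal ones 1.92, 4.48, 3.92 and 3.54 RPKM. Posterior medial libraries had 5.95, 1.55 and 4.10 RPKM, posterior lateral ones 5.70, 5.57 and 6.24, posterior oral ones 9.74, 6.92 and 5.32, and posterior nasal ones 5.67, 5.51 and 5.52 RPKM. The posterior mean was above the anterior one in lateral (5.84 against 4.325 RPKM), oral (7.33 against 5.56) and nasal (5.56 against 3.46). In medial it was below (3.87 against 4.70 RPKM). Has3 was under the minimum for the test along this axis, so these values have no p. Has3 did enter the test over all 8 compartments, where its adjusted p was 0.4523.

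By mean share, Has2 gave most of the synthase transcripts in every compartment, with smaller means in the posterior palate. Of the summed RPKM of the 3 synthases, its mean share was 72.3% ± 5.36 in anterior medial, 78.9% ± 0.742 in lateral and 73.8% ± 7.72 in oral (SD, n = 3), and 78.0% ± 1.35 in nasal (SD, n = 4). In the posterior palate it was 59.5% ± 15.3 in medial, 57.7% ± 8.63 in lateral, 61.5% ± 3.22 in oral and 54.8% ± 6.79 in nasal (SD, n = 3). The shares did not overlap between levels in lateral, oral and nasal, where the highest posterior share was 63.9% and the lowest anterior share 65.1%. In medial they overlapped, with up to 76.8% in posterior and 66.25 to 76.56% in anterior libraries. The shares rest on the same Has2 values as the test above and were not tested. The Has3 share was 4.77% ± 1.83 in anterior nasal (SD, n = 4) and 16.2% ± 1.23 in posterior nasal (SD, n = 3).

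**Figure D3:**
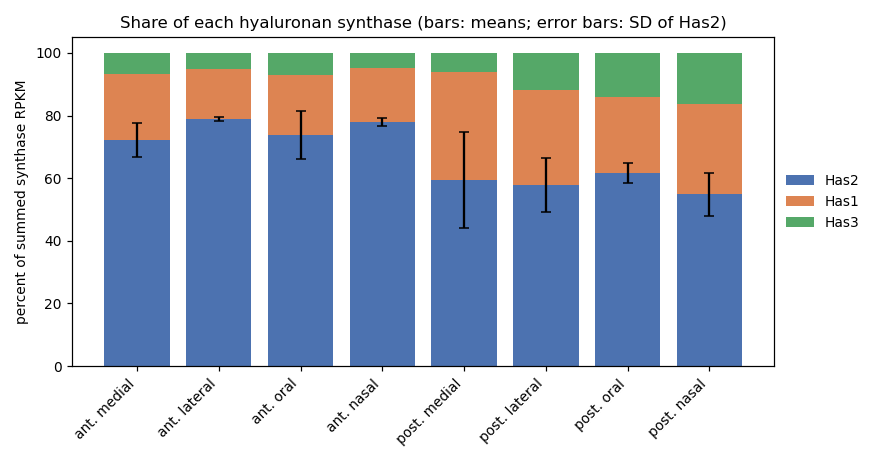
Mean share of each hyaluronan synthase in the summed synthase RPKM (vertical axis, percent) of the 8 compartments; error bars are the SD of the Has2 share. Has2 held 72.3 to 78.9% in the anterior and 54.8 to 61.5% in the posterior compartments.

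The hyaluronidases gave no call in any comparison. Hyal2, at chr9:107471494-107475109 on mm9 with gene ID 15587, averaged 19.1 ± 6.90 RPKM in anterior (SD, n = 13) and 24.7 ± 8.60 RPKM in posterior libraries (SD, n = 12), with a log2 difference of 0.43 (SE 0.26, adjusted p = 0.4532 by limma). Its libraries had 25.4, 17.0 and 20.7 RPKM in anterior medial, 16.6, 23.4 and 18.01 in anterior lateral, 3.83, 24.0 and 23.7 in anterior oral, and 28.8, 20.5, 18.3 and 8.03 RPKM in anterior nasal. Posterior medial libraries had 24.2, 13.2 and 22.9 RPKM, posterior lateral ones 12.5, 28.5 and 27.9, posterior oral ones 18.4, 43.7 and 25.3, and posterior nasal ones 34.3, 23.8 and 21.7 RPKM. Values within a compartment were thus as far apart as those between compartments, and the lowest, 3.83 RPKM, was in anterior oral replicate 1.

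Hyal1, gene ID 15586, lies beside Hyal2 at chr9:107479283-107484030 on mm9 and overlaps Nat6 and Hyal3 there, so reads in the overlaps may have been split between these genes. Hyal1 had 6.29, 10.04 and 6.74 RPKM in anterior medial, 7.77, 6.32 and 8.87 in anterior lateral, 3.76, 5.74 and 10.5 in anterior oral, and 6.03, 5.66, 3.23 and 10.5 RPKM in anterior nasal. It had 7.06, 42.0 and 5.46 RPKM in posterior medial, 13.4, 5.43 and 6.48 in posterior lateral, 9.92, 5.20 and 4.45 in posterior oral, and 9.49, 6.76 and 3.40 RPKM in posterior nasal. Apart from 42.0 RPKM in posterior medial replicate 2 all values lay between 3.23 and 13.4 RPKM. Without the 2 libraries that stood apart the mean was 7.16 ± 2.52 RPKM (SD, n = 23), against 8.42 ± 7.44 RPKM (SD, n = 25) with them.

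Vcan, at chr13:89794915-89882117 on mm9 with gene ID 13003, encodes the large proteoglycan that binds hyaluronan in mesenchymal matrix. It did not pass the test along the anterior-posterior axis, with 157.7 ± 29.5 RPKM in anterior (SD, n = 13) and 143.3 ± 36.1 RPKM in posterior libraries (SD, n = 12) (log2 difference -0.16, SE 0.13, adjusted p = 0.6108 by limma). Its libraries had 131.0, 143.8 and 137.1 RPKM in anterior medial, 170.2, 171.8 and 156.1 in anterior lateral, 172.4, 126.4 and 159.5 in anterior oral, and 172.7, 118.5, 156.8 and 233.6 RPKM in anterior nasal. Posterior medial libraries had 177.1, 158.9 and 182.5 RPKM, posterior lateral ones 209.8, 119.3 and 159.9, posterior oral ones 147.6, 136.9 and 129.3, and posterior nasal ones 93.2, 98.0 and 107.7 RPKM. The posterior mean was above the anterior one in medial (172.9 against 137.3 RPKM) and below it in nasal (99.6 against 170.4 RPKM). The values of the 2 levels did not overlap in nasal, as for 5.87% of genes in this direction. They did not overlap in medial either, at 158.9 to 182.5 RPKM in posterior and 131.0 to 143.8 RPKM in anterior libraries. The share of genes higher in this way in medial was not worked out. Neither difference was tested by itself.

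The 3 posterior nasal libraries had less Vcan than any of the other 22, of which the lowest was 118.5 RPKM. Of 11913 genes, 0.579% were lowest in all 3 posterior nasal libraries in this way. Some bone markers stood out in the same libraries. Summed levels of the 5 osteoblast markers were 281.5 to 450.4 RPKM in posterior nasal and 29.0 to 173.5 RPKM in the other 22. Of these markers Ibsp, Alpl and Sp7 had their highest compartment means in posterior nasal, at 167.5, 108.4 and 82.8 RPKM. Bglap and Spp1 had theirs in anterior lateral, at 1.87 and 8.43 RPKM. Summed levels of 4 of 4 cartilage markers, 53.0 to 88.3 RPKM, overlapped the other libraries, of which posterior oral reached 57.6 and posterior medial 53.6 RPKM. The part of these cells in the Vcan and Has2 levels of posterior nasal was not tested.

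The posterior oral against nasal comparison asked whether the 2 faces of the posterior shelf differ. None of the 7 members passed, while 1.25% of 10586 genes did (limma, adjusted p under 0.05). Has2 and Vcan came closest and were both higher in oral with no overlap, as were 6.21% of genes. Has2 had a log2 difference, oral minus nasal, of 0.75 (SE 0.22, adjusted p = 0.2443) and Vcan of 0.47 (SE 0.19, adjusted p = 0.5658). Their unadjusted P, 0.008769 and 0.04134, were under 0.05, as for 8% of genes. In the 2 runs that held both faces the oral values were higher, which follows from the lack of overlap and is no separate check. For Has2 they were 34.6 against 22.5 and 29.9 to 30.9 against 15.4 RPKM. Vcan had 147.6 against 93.2 and 129.3 to 136.9 against 98.0 RPKM. The other 5 members had log2 differences from -0.22, for Cd44, to 0.35, for Has3.

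In the anterior palate, Has2 did not pass the test between oral and nasal, with 57.3 ± 9.30 RPKM (SD, n = 3) in oral and 59.6 ± 20.98 RPKM (SD, n = 4) in nasal (log2 difference -0.01, SE 0.30, adjusted p = 0.9999 by limma). No member, and none of the 10684 genes tested, was called there by adjusted p (0%), whereas an unadjusted P under 0.05 was found for 2.98%. Among the members tested the log2 difference lay between -0.40, for Hyal2, and 0.13, for Has1. An interaction test asked whether the Has2 difference of oral against nasal was itself another at the posterior level. It was larger in the posterior palate by 0.76 on the log2 scale (SE 0.37, unadjusted P = 0.06497, adjusted p = 1 by limma), and none of the 7 members was called, with 0.035% of genes called.

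The lateral against medial comparison asked about differences across the width of the shelf. None of the 6 members tested in the anterior palate was called by adjusted p, against 2.51% of 10427 genes. Vcan was higher in anterior lateral in 3 of 3 libraries with no overlap, as were 9.72% of genes, with a log2 difference of 0.27 (SE 0.11, adjusted p = 0.293 by limma), and its unadjusted P of 0.03886 was under 0.05, as for 15% of genes. Has2 had a log2 difference of 0.41 (SE 0.22, adjusted p = 0.4414) and Cd44 of -0.32 (SE 0.16, adjusted p = 0.4096), and their values overlapped between the 2 compartments. In the posterior palate neither a member nor any other of the 10324 genes was called by adjusted p (0%), whereas 1.54%, none of them a member, were under 0.05 before adjustment. Has3 was the member furthest from 0 there, with a log2 difference of 0.77 (SE 0.50, adjusted p = 0.9572). The spread was wide in posterior medial, which holds the library that stood furthest apart. None of the 7 members was called in the test of whether lateral against medial changed along the anterior-posterior axis, with 0.00902% of genes called.

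**Figure D4:**
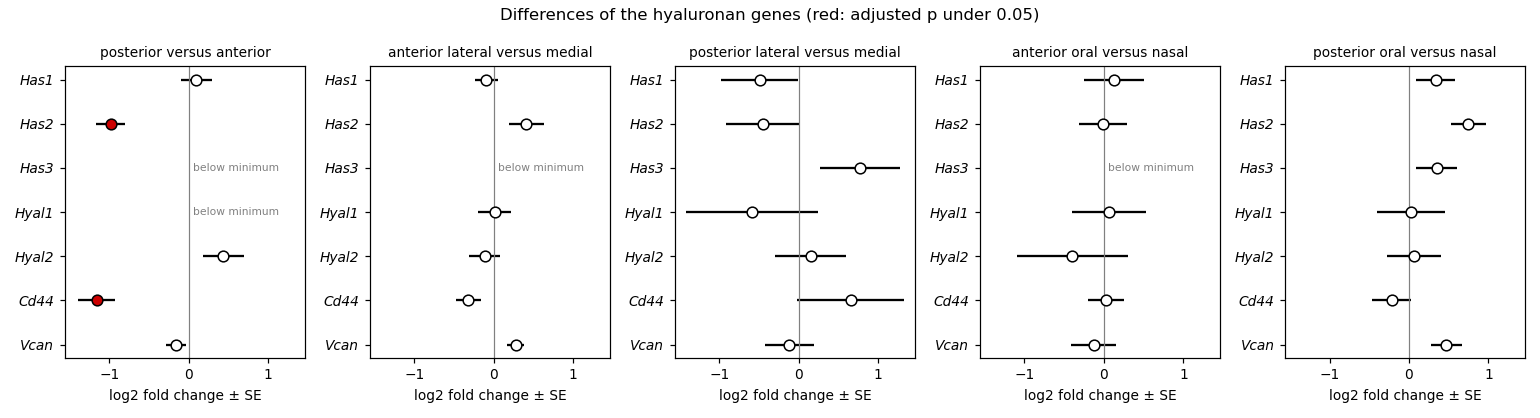
Log2 fold change with its SE (horizontal axes, log2 scale) of each hyaluronan gene in the 5 comparisons, first-named minus second-named group; red points have an adjusted p under 0.05. Only Has2 and Cd44 in posterior versus anterior are red, at -0.98 and -1.16.

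Over all 8 compartments at once, Has2 (adjusted p = 0.01226 by limma's F test) and Cd44 (adjusted p = 0.009058) were the 2 of 7 members that differed, against 4.42% of 11913 genes. The highest and lowest compartment means of Has2 were 1.82 apart on the log2 scale, anterior lateral and posterior nasal. Those of Cd44 were 2.16 apart, anterior medial and posterior medial. Without posterior medial replicate 2 the highest and lowest were 1.51 apart, and the lowest was then posterior lateral. Adjusted p was 0.3393 for Vcan, 0.7689 for Has1, 0.9146 for Hyal2 and 0.9334 for Hyal1. Over the 7 genes, neighbours in the order of compartment means overlapped, except for posterior nasal, which came last for Has2 and Vcan. For Has2 its libraries lay below those of posterior oral, as for 6.21% of genes. For Vcan they lay below every other library, as for 0.579% of genes. Both F test calls were lost with run as a covariate, at an adjusted p of 0.08314 for Has2 and 0.1085 for Cd44, and that of Has2 without posterior nasal replicate 2, at 0.05977.

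Other genes that make, bind or degrade hyaluronan mostly did not pass. Of 48 such genes, 24 were tested along the anterior-posterior axis, where 1 was higher and none was lower in the posterior palate, against 1.66% of all genes in each direction. The 1 gene was Gusb, a lysosomal enzyme that removes glucuronic acid from glycosaminoglycan fragments, with 13 ± 2.31 RPKM in anterior (SD, n = 13) and 17.6 ± 3.67 RPKM in posterior libraries (SD, n = 12) (log2 difference 0.43, SE 0.11, adjusted p = 0.02488 by limma). With run as a covariate its adjusted p was 0.6088. None of the 7 enzymes of precursor supply was called in any of the 5 comparisons, and their median log2 difference along this axis was 0.03. Ugdh, which makes UDP-glucuronic acid, stood at 31.9 RPKM in the anterior and 31.7 RPKM in the posterior palate.

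Further receptors, 5 genes of which 3 were tested, gave no call along the axis. Lyve1, the hyaluronan receptor of lymphatic vessels and some macrophages, averaged 8.65 ± 6.72 RPKM in anterior (SD, n = 13) and 16.0 ± 5.67 RPKM in posterior libraries (SD, n = 12) (log2 difference 1.39, adjusted p = 0.1163 by limma). Rdx and Msn, which link CD44 to the actin cytoskeleton, reached compartment means of 54.4 and 54.7 RPKM, in anterior medial and anterior lateral, and were not called in any comparison. Lyve1 and Ugdh are named here after their values were seen. Of the 48 genes, 13 had no compartment mean as high as 1 RPKM, among them the hyaluronidases Hyal4, Hyal5, Hyal6 and Spam1.

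Among the 14 link and further binding proteins 4 were tested in anterior lateral against medial and in posterior oral against nasal, and fewer elsewhere. Acan, the large proteoglycan of cartilage, was the 1 gene called among them, in both comparisons, but it reached the minimum of 5 RPKM in 3 libraries only through the 3 libraries of the group where it was high, so these calls are no support for a difference. Its level was 1.199 ± 0.498 RPKM in anterior lateral and 7.08 ± 0.648 RPKM in anterior medial (SD, n = 3), with an adjusted p of 0.006492 by limma, and 0.05126 with no minimum. It was 0.941 ± 0.627 RPKM in posterior oral and 9.05 ± 3.53 RPKM in posterior nasal (SD, n = 3), with an adjusted p of 0.0149 by limma, and 0.1031 with no minimum. Summed cartilage markers were 9.56 to 11.3 RPKM in anterior lateral, 13.97 to 38.3 RPKM in anterior medial, 36.1 to 57.6 RPKM in posterior oral and 53.0 to 88.3 RPKM in posterior nasal, and their part was not tested. Fbln2, a matrix protein that binds versican, was the most abundant of the 48 genes and the other gene called in anterior lateral against medial, at 63.9 ± 3.81 RPKM in anterior lateral against 102.6 ± 6.10 RPKM in anterior medial (SD, n = 3; log2 difference -0.68, SE 0.11, adjusted p = 0.02482 by limma). Over the 48 genes, 28 were tested in the anterior lateral against medial comparison, with none higher and 2 lower, Acan and Fbln2, against 1.43% and 1.08% of all genes. With run as a covariate, neither gene was called there, at an adjusted p of 0.9999 for both, and Acan was not called in posterior oral against nasal, at 0.08419. Fbln2 also lost its call with no minimum, at 0.09554, with a fit of all libraries, at 0.9999, and without any single library of the comparison.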

How the data were processed

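RNA of LCM samples was amplified (NuGEN Ovation V2), tagmented with Nextera and sequenced. Per the labels, reads were aligned with TopHat to mm9. The authors deposited RPKM values made in GeneSpring after removing duplicate and multiply aligned reads, and they were used with no further scaling. Amplification and LCM input limit precision, and the counting errors given cover read sampling only. Compartments came from the labels and runs from the study's column headers. All columns were used. Comparisons used limma 3.58.1 in R 4.3.3 (lmFit, eBayes) on log2(RPKM + 0.1), over genes with at least 5 RPKM in 3 compared libraries, or 10 RPKM in 6 along the anterior-posterior axis. Fold changes are on this scale and understate changes of low genes. Called means a Benjamini-Hochberg adjusted p under 0.05, two-sided. The test was checked on simulated data. With 3 libraries against 3, an exact permutation test cannot go below 0.1 and was not used. Members and lists were chosen with earlier results of these data known. Members are named throughout, other genes where called or with a compartment mean of at least 50 RPKM. Alternatives were pseudocount, minimum, centring, replicate block, run, all-library fit and left-out libraries. Deviations of same-numbered libraries from their compartment means correlated at 0.242, 0.218 and 0.116 between anterior oral and nasal. Between posterior oral and nasal the correlations were 0.232, -0.037 and 0.305. Between lateral and medial they were 0.218, 0.042 and 0.216 in the posterior and 0.01, -0.101 and -0.046 in the anterior palate. The block changed no call in anterior oral against nasal. Figures used Python with matplotlib.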

Additional observations from a re-analysis of the deposited data

How the results depend on the processing

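The posterior decrease of Has2 kept its direction and its call under every alternative run, with a log2 difference of -1.07 to -0.90 when single libraries were left out. That of Cd44 kept its direction under all and its call under all but run as a covariate, and was -1.24 to -0.95 with single libraries left out. Of 798 member values recomputed, 755 kept direction and call, 4 lost the call, as given above, and 39 changed sign, none of them called. With run as a covariate the sign changes were to -0.0054 for Has2, 0.33 for Hyal2 and -0.014 for Vcan in anterior lateral against medial, -0.0040 for Hyal1 in anterior oral against nasal, -0.25 for Hyal1 and -0.11 for Hyal2 in posterior oral against nasal and -0.10 for Has1 along the axis. In anterior oral against nasal the replicate block gave 0.21 for Has2 and 0.038 for Vcan, and centring gave -0.0036 for Cd44.

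Leaving out single libraries gave ranges that include 0 for several uncalled values. In anterior lateral against medial these were -0.21 to 0.022 for Has1, -0.12 to 0.22 for Hyal1 and -0.26 to 0.029 for Hyal2. In posterior lateral against medial they were -1.14 to 0.32 for Hyal1, -0.13 to 0.54 for Hyal2, -0.076 to 1.12 for Cd44 and -0.32 to 0.086 for Vcan. In anterior oral against nasal they were -0.20 to 0.38 for Has1, -0.14 to 0.21 for Has2, -0.32 to 0.41 for Hyal1, -0.84 to 0.47 for Hyal2, -0.066 to 0.091 for Cd44 and -0.29 to 0.038 for Vcan. In posterior oral against nasal they were -0.38 to 0.35 for Hyal1 and -0.27 to 0.35 for Hyal2, and along the axis -0.045 to 0.17 for Has1.

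Counts of called genes moved more, and the cause was not tested. Anterior lateral against medial had 262 genes, 157 with no minimum, 157 with the replicate block, 0 with run as covariate, 31 in a fit of all libraries and 55 to 195 with a library left out. Posterior lateral against medial had 0, 1 with run and 25 in the fit of all libraries, and 0 to 1 with a library left out. Anterior oral against nasal had 0, 4 and 6 in turn, and 0 to 6 with a library left out. Posterior oral against nasal had 132, 11 with no minimum, 69 with the other minimum, 15 with run, 68 in the fit of all libraries and 12 to 57 with a library left out. Posterior against anterior had 286, 485 with no minimum, 452 with the other minimum, 143 with run, 454 without the 2 libraries that stood apart and 231 to 414 with 1 left out. The F test called 526, 177 with run, 917 without those 2 libraries and 386 to 737 with 1 left out. The change of lateral against medial had 1, 6 with a pseudocount of 1, 0 with no minimum, 0 with the block, 3 with run, 10 in the fit of all libraries, 3 without the 2 libraries and 0 to 9 with 1 left out. The change of oral against nasal had 4, 7 and 1 with a pseudocount of 1 and 0.01, 0 with no minimum, 0 with the block, 0 with run, 10 in the fit of all libraries and 0 to 5 with 1 left out. The fits without the 2 libraries, or without the 6 with a line name, were added after seeing the data. Same-numbered libraries deviated together in part of the posterior pairs too, and the labels do not say whether they share an embryo. The block (0.93 lower for Has2 along the axis, adjusted p = 0.003806 by limma) changed no member's call. With the block Fbln2 and Gusb lost their calls, at 0.08494 and 0.05058. Gusb also lost its call with no minimum, at 0.05708. With single libraries left out the adjusted p of Fbln2 was 0.05826 to 0.1363. Acan dropped out of both comparisons when a library of its high group was left out, and with the stricter minimum. Without a library of its low group its adjusted p was 0.005699 to 0.0581 in posterior oral against nasal and 0.003664 to 0.02214 in anterior lateral against medial. In the fit of all libraries it was 0.05674 and 0.3103, respectively. By counting error Hyal2, Hyal1 and Has3 are the least precise members, at 14, about 18.6 and 22 reads in the poorest library.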

Other observations

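The genes whose log2 values were most like those of each hyaluronan gene over the 25 libraries were taken from 11913 genes by Pearson's r. Depth and quality differ between libraries and are shared by all genes of a library, so the values are descriptions. Each r is given with all 25 libraries and with 23, without posterior medial replicate 2 and anterior oral replicate 1. For Has2 they were Ryr2 (0.854 and 0.892), Hmga2 (0.837 and 0.862) and Calcrl (0.832 and 0.834). Cd44 was most like Cobl (0.912 and 0.804), Rspo1 (0.893 and 0.767) and Darc (0.888 and 0.795). For Vcan they were Rgs2 (0.862 and 0.870), A830082K12Rik (0.803 and 0.811) and Cntn3 (0.795 and 0.83). Hyal2 was most like Sh3gl1 (0.950 and 0.891), Scap (0.947 and 0.893) and Marveld1 (0.944 and 0.872).

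Values for Has1, Has3 and Hyal1 also fell without the 2 libraries. Has1 was most like Nlk (0.852 and 0.703), Glt8d1 (0.848 and 0.679) and 1110028C15Rik (0.844 and 0.711). Has3 was most like Apitd1 (0.848 and 0.775), Utp15 (0.833 and 0.724) and Gm13861 (0.832 and 0.722), and Hyal1 most like Dgkh (0.851 and 0.700), Klhdc4 (0.838 and 0.643) and Ttc17 (0.833 and 0.738). None of the 7 genes was among the 3 most like another. Between Has2 and Cd44, the 2 genes lower in the posterior palate, r was 0.321 over 25 and 0.419 over 23 libraries, and between Has2 and Vcan it was 0.689 and 0.692.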
